A study of Sus scrofa with 189 samples.

Results

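The genes of the mitochondrial ribosomal proteins were followed in the back muscle of 189 pigs. They were chosen by name: every gene of the deposited table whose symbol starts with MRPL (named for the large subunit) or MRPS (named for the small subunit), with its transcripts summed. This gave 58 of 12651 genes, 37 MRPL and 21 MRPS, from 75 transcripts. All 58 passed the filter used for testing, a mean of at least 0.5 FPKM (fragments scaled to transcript length and library), which 10717 genes passed. None of the 58 was listed at 0 in any library. A further 9 genes have no symbol in the table and are named MRPL15, MRPL22, MRPL30, MRPL33, MRPL50, MRPL54, MRPS15, MRPS27 and MRPS33 only by a reference table. They are not members by this rule. MRPL57 is described apart, because its spread between animals was far larger than that of the other members.

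The animals were F1 pigs of Duroc boars and Luchuan sows, raised on 1 farm with the same diets, and slaughtered at 210 ± 6 days of age. RNA with a poly(A) tail was taken from the longissimus dorsi, a back muscle that runs along the spine, and sequenced as paired reads of 150 bases. Intramuscular fat content (IMF, with no unit in the labels) was recorded for 164 animals. The titles of 21 libraries carry the mark "re-analyzed", whose meaning the labels do not give. Of these, 11 were of low IMF (1.69 ± 0.433, SD) and 10 of high IMF (6.03 ± 0.636, SD). The 143 unmarked libraries with IMF averaged 3.34 ± 0.850 (SD), and 25 unmarked libraries had no IMF. No treatment is named in the labels. Which pigs are littermates or share a sire is not given either, so each animal counted as 1 replicate of the cross.

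The mitochondrial ribosome translates the few mRNAs of the mitochondrial genome, all of which encode subunits of the oxidative phosphorylation complexes. Its rRNAs come from the mitochondrial genome, while all of its proteins are encoded in the nucleus and imported. Some of these proteins have counterparts in bacterial ribosomes (MRPL1, MRPL28, MRPS12) and others are particular to mitochondria (MRPL37, MRPL39, MRPS35). Skeletal muscle, and slow fibres above all, depends on this respiratory machinery.

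The tissue label was checked against 9 muscle fibre markers, none of them at 0 in any library, whose summed level ranged from 29099 to 115099 FPKM. Summed FPKM of all listed transcripts ranged from 364109 to 465105 per library. The table holds no read counts, so the depth behind a value is unknown. The SDs given are the spread between the animals' libraries, and the SEs are those of the fits. Unmarked library 39 had the lowest median correlation with the other libraries, 0.889 against a median of 0.944 over libraries. It also held the highest level of 3 members, MRPS6 among them.

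Together the members took from 0.171% to 0.374% of a library's summed FPKM, with a median of 0.229%. The median of the members' mean levels was 11.7 FPKM, against 4.16 FPKM over the 10717 genes tested. The median was 15.4 FPKM for MRPL and 10.3 FPKM for MRPS genes. FPKM are per length, so levels of different genes can be set side by side. Mean levels spanned 31.4-fold. They lay under 5 FPKM for 12 members, from 5 to under 20 FPKM for 28, and at or above 20 FPKM for 18.

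The highest member was MRPL41, a large-subunit protein particular to mitochondria, at 69.0 ± 18.6 FPKM (SD, n = 189), with libraries from 29.7 to 177.3 FPKM and a median of 66.4. Its gene has a single exon on a scaffold that is not placed on a chromosome. MRPL28, of a family shared with bacteria, followed at 55.8 ± 18.2 FPKM (SD, n = 189). MRPL57 averaged 52.2 ± 44.0 FPKM (SD, n = 189), MRPL37 46.2 ± 10.1 and MRPL24 40.9 ± 7.45. The 5 highest members were thus all named for the large subunit, and the highest MRPS gene was MRPS18A at 29.2 ± 6.86 FPKM (SD, n = 189). MRPS18A is 1 of 3 relatives of a single bacterial small-subunit protein and sits, despite its name, in the large subunit. MRPS30, another MRPS protein of the large subunit, was among the low members at 2.69 ± 0.735 FPKM (SD, n = 189). MRPS36, now known as a part of a dehydrogenase complex, was not analysed here.

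The lowest members were MRPL49 at 2.20 ± 0.708 FPKM, MRPL47 at 2.39 ± 1.09 and MRPL1 at 2.62 ± 1.53 (SD, n = 189 each). MRPS12, the small-subunit protein of the decoding site, averaged 17.1 ± 5.03 FPKM (SD, n = 189) over 3 listed transcripts, of which the most abundant held 62.5%. In the order of mean levels, 56 of 57 pairs of neighbours differed by less than the smaller of their SDs. The exception was MRPS7 above MRPL21, with 3.99 and 3.26 FPKM, and MRPS7 was the higher in 152 of 189 animals.

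**Figure D1:**
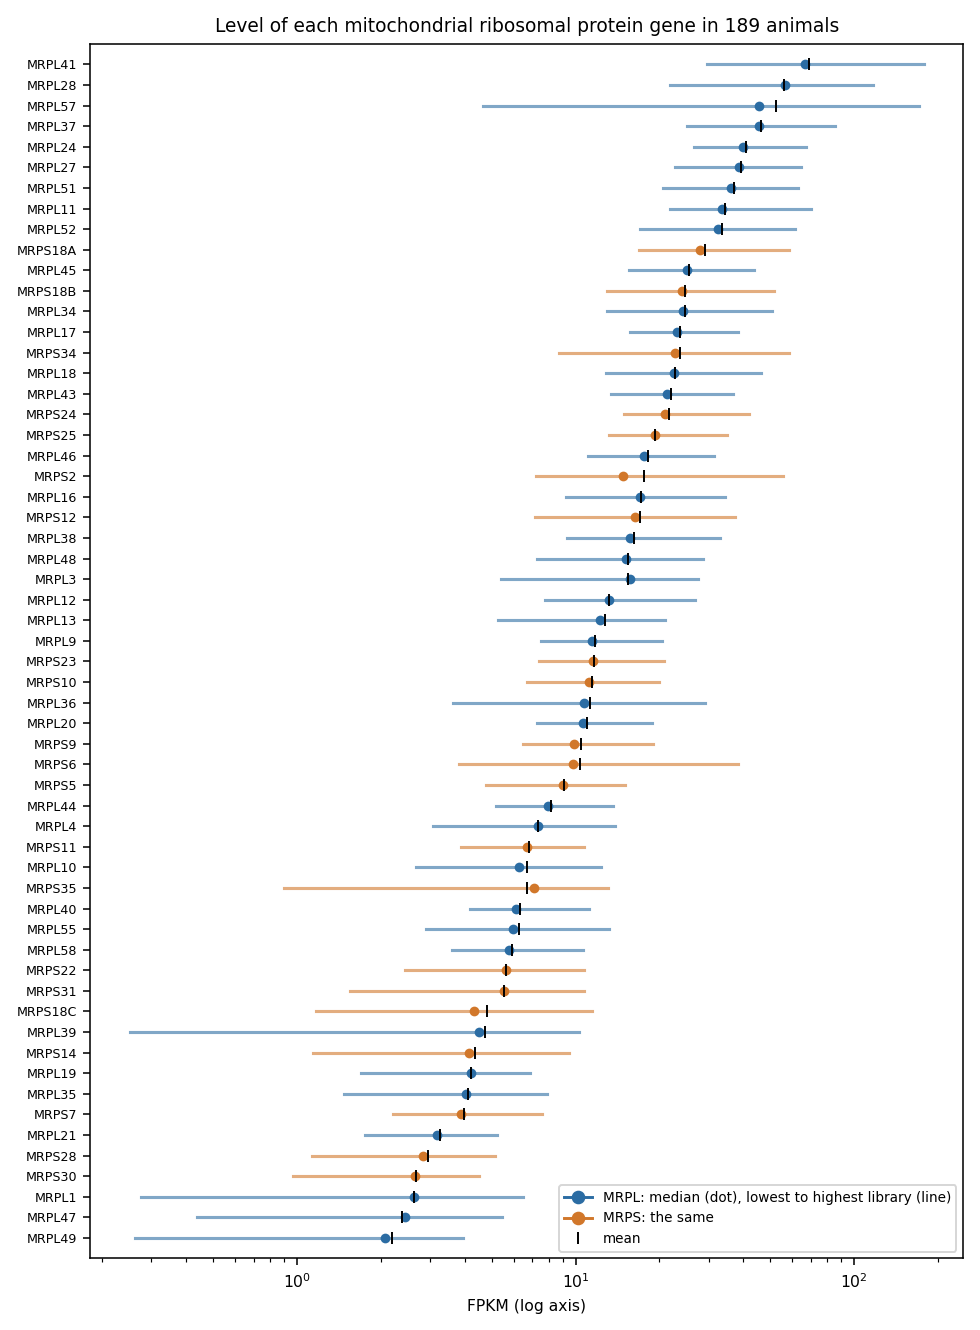
Level of each of the 58 members in FPKM on a log axis: the dot is the median over 189 libraries, the line runs from the lowest to the highest library and the tick is the mean, with MRPL in blue and MRPS in orange. Means run from 2.20 FPKM (MRPL49) to 69.0 FPKM (MRPL41), and the line of MRPL57 is far longer than those of its neighbours.

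Where a gene lies limits what its level can be read as, because the library kit is not stated to keep the strand. The spans of 20 members overlap another listed gene, 16 of them a gene on the opposite strand. MRPL49, on chromosome 2 from 7066516 to 7072444, lies wholly inside the span of SYVN1 on the other strand, which is at 108 FPKM. MRPS7 lies wholly inside that of MIF4GD, and MRPL43 inside that of TWNK. Reads of these pairs could not be told apart where exons overlap. MRPL57 lies on chromosome 11 from 1321085 to 1321828 and shares 254 bases with SKA3, which averaged 0.571 FPKM. The span of MRPL28 shares 9909 of its 10843 bases with TMEM8A on the same strand, which averaged 0.121 FPKM. Of its 2 listed transcripts, that of 19 exons averaged 13.5 FPKM and that of 5 exons 42.3 FPKM. How far the level of MRPL28 includes reads of TMEM8A was not tested.

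Most members varied less between animals than the median gene. The SD of log2(FPKM + 1) had a median of 0.30 over the members, against 0.37 over the 10717 genes tested and 0.40 over the 6798 genes in the members' range of levels. It was under the median of all genes for 44 of the 58, and the highest library was under 4 times the lowest for 33. MRPL21 (0.19), MRPS23 (0.21) and MRPS11 (0.22) varied least. Apart from MRPL57, the most variable members were MRPL1 (0.67), MRPS18C (0.64), MRPL39 (0.57) and MRPS35 (0.55). MRPL1 ranged from 0.275 to 6.46 FPKM with a median of 2.62. MRPL39, a mitochondrion-specific protein of the large subunit, ranged from 0.252 to 10.3 FPKM with a median of 4.51. MRPL1 was listed as 2 transcripts, 1 of which was at 0 in 9 libraries and the other in 1.

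MRPL57, a small protein of the large subunit, had an SD of 1.48 on the log2 scale, the 16th highest of 10717 genes. Its level ranged from 4.65 to 170.1 FPKM with a median of 45.6. The values fell in 2 ranges: 63 libraries were under 15 FPKM, 114 were at 30 FPKM or more, and only 12 lay between. On the log2(FPKM + 1) scale, the widest gap between neighbouring values away from both ends of the range was from 24.8 to 30.5 FPKM, with 75 libraries below it and 114 above. All 21 re-analyzed libraries lay above, the lowest at 52.1 FPKM. The 168 unmarked libraries lay on both sides, 75 below and 93 above. The title code, the first 9 digits of a library's title, is shared by 2 or more animals in 48 cases, 146 animals in all, and its meaning is not stated. For 33 of these 48 codes the libraries lay on both sides.

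The genes that followed MRPL57 most closely over the 189 libraries were not members. TRIR had an r of 0.935, ANKRD9 0.932, the unnamed gene ENSSSCG00000040236 0.927, TMEM238 0.905 and ZNF787 0.902. Within the 114 libraries above the gap alone, r was 0.743 for TRIR and 0.825 for ANKRD9. Within the 75 below it was 0.835 and 0.576. The libraries were divided by the level of MRPL57 itself, which narrows its range on each side. The levels share their libraries and the scaling of FPKM, so these are descriptions. Of the members, MRPL36 (r of 0.789), MRPS2 (0.754) and MRPL1 (0.672) followed MRPL57 most, and MRPS6 ran most against it (-0.626). Within the libraries above the gap, r was 0.608 for MRPL36 and 0.752 for MRPS2 but 0.193 for MRPL1. Within those below it was 0.708, 0.390 and 0.074.

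**Figure D2:**
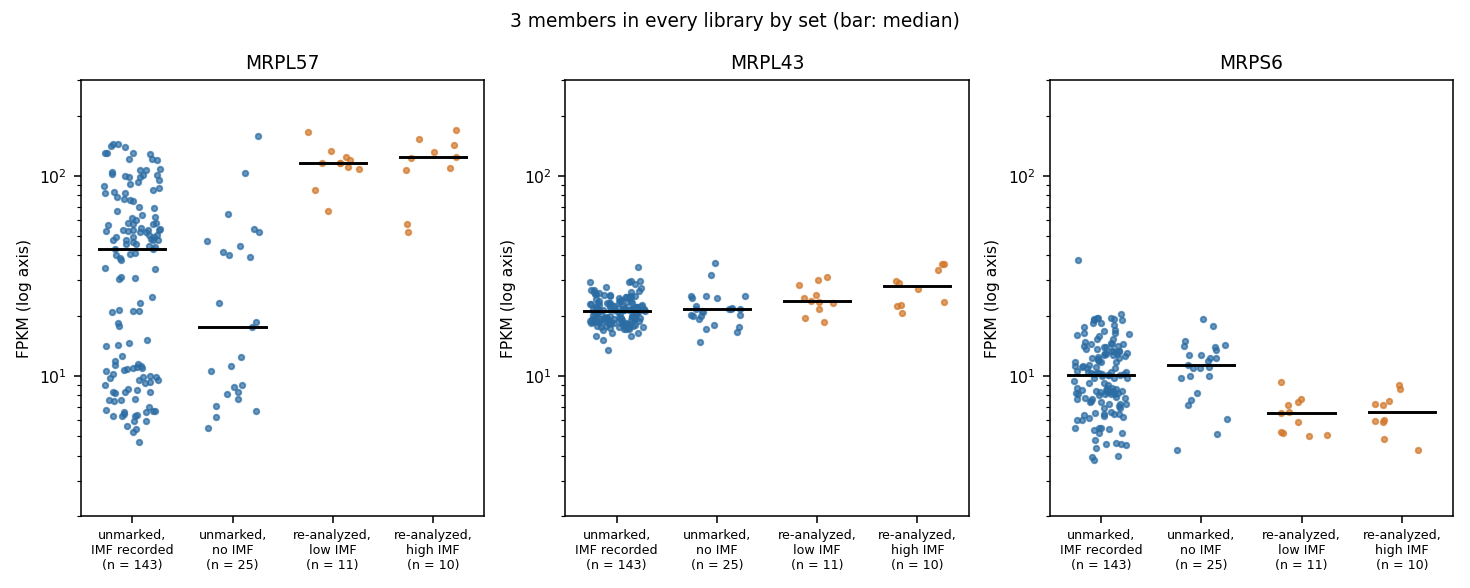
FPKM on a log axis of MRPL57, MRPL43 and MRPS6 in each of the 189 libraries, by set, with a bar at the median of the set. MRPL57 falls in 2 ranges in the unmarked sets and lies at or above 52.1 FPKM in every re-analyzed library, MRPL43 stays within 13.5 to 36.7 FPKM throughout, and the re-analyzed libraries lie in the lower part of the range of MRPS6.

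Members varied together only in part. After the mean difference between marked and unmarked libraries was removed, the median Pearson r over the 1653 pairs of members was 0.256 over 189 libraries, against 0.0785 for pairs of all genes tested. It was 0.297 among MRPL, 0.155 among MRPS and 0.229 between MRPL and MRPS. The same measure was 0.446 for 25 proteins of the cytosolic ribosome, 0.293 for 33 nuclear genes of oxidative phosphorylation and 0.766 for the 13 mitochondrially encoded proteins. The mean of the z-scored MRPL genes followed that of the MRPS genes with an r of 0.882. MRPL11 (0.761), MRPL43 (0.754) and MRPL20 (0.747) followed the mean of the other members most closely. MRPL37 (0.087), MRPL39 (0.071) and MRPS6 (-0.033) followed it least.

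The first 2 principal components of the members were of nearly equal size, with 29.2% and 25.1% of their variance. Average linkage, set to give 2 groups, cut the members into a group of 36, with a median r of 0.406 within it, and a group of 22, with 0.521. The median r between the groups was 0.022. The groups were formed from these same values of r, so a lower r between than within them follows from the grouping. The 22 were MRPL1, MRPL3, MRPL13, MRPL19, MRPL34, MRPL35, MRPL36, MRPL39, MRPL47, MRPL51, MRPL52, MRPL57, MRPS2, MRPS5, MRPS10, MRPS14, MRPS18C, MRPS22, MRPS28, MRPS30, MRPS31 and MRPS35. Both groups mixed the subunits, with 12 MRPL and 10 MRPS in the smaller. Levels were lower in the smaller group, with a median of 6.18 FPKM against 16.7 FPKM in the larger.

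Pairs of members ran from closely alike to opposed. MRPL1 and MRPL47 formed the closest pair (r of 0.895), followed by MRPL1 and MRPS35 (0.873). MRPS18A, MRPS18B and MRPS18C are the relatives named above, and they did not all follow each other. MRPS18A and MRPS18B followed each other (r of 0.658), and MRPS18C ran against both (-0.513 and -0.671). MRPL10 and MRPL12, which together form the stalk of the large subunit, had an r of 0.585. MRPL28 and MRPS18C were the most opposed pair, at -0.699. MRPS11 and MRPL46 start on opposite strands of chromosome 1 with 360 bases between them, and their r of 0.628 was higher than that of 91.8% of the pairs of members.

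**Figure D3:**
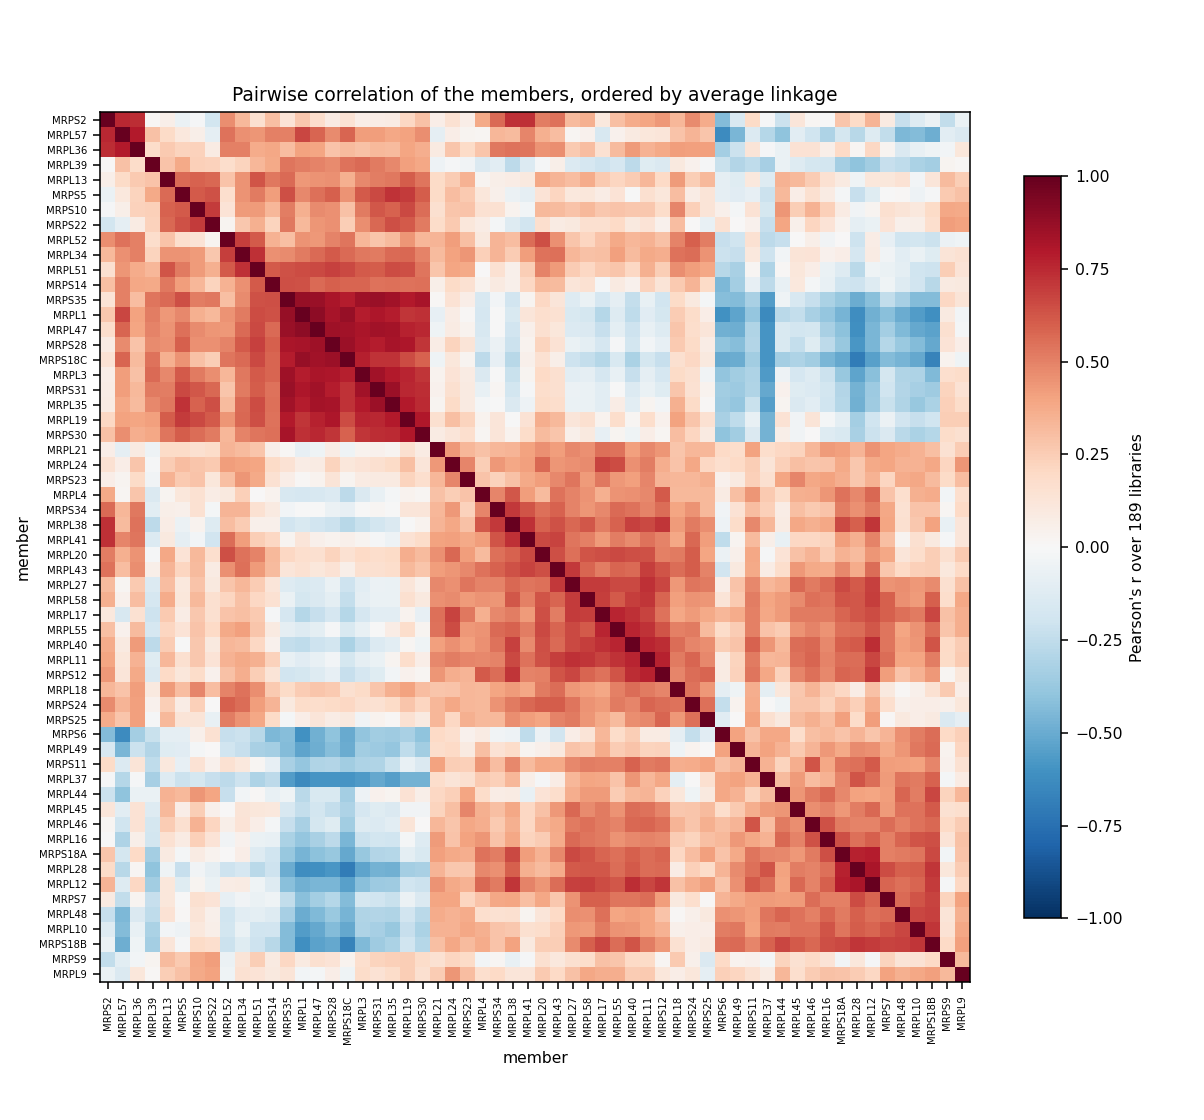
Pearson's r between each pair of the 58 members over 189 libraries, from -1 (blue) to 1 (red), after removing the mean difference between marked and unmarked libraries, ordered by average linkage. The upper left block holds the 22 genes of the smaller group, with its core around MRPL1, MRPL47 and MRPS35, and the blue fields show that this core runs against MRPL28, MRPL37 and MRPS18B.

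The 5 genes most like the mean of the members were SNRPD3 (r of 0.796), LAMTOR2 (0.763), PSMA1 (0.759), DYNLRB1 (0.754) and COA3 (0.751), none of them a ribosomal protein. SNRPD3 is a core protein of the spliceosome, PSMA1 a subunit of the proteasome and COA3 an assembly factor of cytochrome c oxidase. The mean of 21 factors of mitochondrial ribosome assembly followed that of the members with an r of 0.832 (Spearman's rho 0.811). For 13 mitochondrial translation factors r was 0.503, for 20 mitochondrial tRNA synthetases 0.625 and for nuclear oxidative phosphorylation 0.597. For the mean of the mitochondrially encoded genes it was 0.183. Without the 2 libraries farthest from the median of the x values, these were 0.817, 0.495, 0.609, 0.576 and 0.198. The member mean was lower where a few genes took more of the library: its r with the percentage of FPKM held by the 10 highest genes was -0.441, and -0.406 without those 2 libraries.

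No member passed the test for a slope on intramuscular fat over the 164 animals, by limma at an adjusted p under 0.05. The background was 0.084% of all genes higher and 0% lower. Without adjustment, 9 of the 58 members had a p under 0.05, beside 527 of the 10717 genes tested. The slope was positive for 51 of the 58, and 74.6% of all genes tested also had a positive slope. The median slope was 0.03 on the log2(FPKM + 1) scale per unit of IMF for the members and 0.01 for all genes. MRPL18, a large-subunit protein of a family shared with bacteria, had the smallest adjusted p, 0.552, with a slope of 0.06 ± 0.02 (SE). That of MRPL57 was 0.10 ± 0.09 (SE, limma adjusted p = 0.961). No member passed the test for a slope that differs between re-analyzed and unmarked libraries, the interaction term of limma, which called 0% of all genes in either direction. Without adjustment, 1 member had a p under 0.05 for the interaction, beside 176 of the 10717 genes.

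High and low IMF within the re-analyzed libraries also gave no member past the threshold, with a background of 0.084% of all genes higher and 0% lower. An unadjusted p under 0.05 was reached by 6 of the 58 members, beside 475 of the 10717 genes tested. The smallest limma adjusted p of a member was 0.986. The median difference was 0.14 on the log2(FPKM + 1) scale for the members and 0.07 for all genes. MRPL18 lay between 15.3 and 40.2 FPKM with a median of 22.4 in the 11 libraries of low IMF. In the 10 of high IMF it lay between 19.2 and 38.8 FPKM with a median of 29.6. The ranges overlap over most of their length. MRPL57 had medians of 116.4 FPKM at low and 123.7 FPKM at high IMF, and its fitted difference of -0.03 ± 0.19 (SE, log2 scale) was far smaller than its error.

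The re-analyzed libraries did stand apart. With IMF as a linear term, 35 of the 58 members were higher in the 21 re-analyzed than in the 143 unmarked libraries and 2 were lower, by limma. The IMF of the re-analyzed libraries ran from 0.77 to 2.33 and from 4.83 to 6.84, that of the unmarked from 1.19 to 5.61. The fit thus reaches beyond the unmarked range at both ends. That is 60.3% and 3.45% of the members, beside 18.3% of all genes higher and 22.7% lower. The median difference was 0.17 on the log2(FPKM + 1) scale for members and -0.01 for all genes. Of the MRPL genes 22 of 37 were higher and 1 lower, and of the MRPS genes 13 of 21 were higher and 1 lower. Without MRPL57 the members took 0.248 ± 0.0369% of a re-analyzed library (SD, n = 21) and 0.220 ± 0.0248% of an unmarked one (SD, n = 168). What the mark stands for is not stated, so that a difference between animals and one between library sets cannot be told apart. In whole muscle, fewer cells of a type and less RNA per cell cannot be told apart either.

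MRPL57 ranged from 4.65 to 145.0 FPKM with a median of 43.1 in the unmarked libraries with IMF, and from 52.1 to 170.1 FPKM with a median of 116.4 in the re-analyzed ones. Every re-analyzed library lay above the unmarked median, and the sets overlap from there up to the highest unmarked library. The difference was 1.81 ± 0.31 (SE, log2 scale, limma adjusted p = 1.67e-06). MRPL1 ranged from 0.275 to 6.46 FPKM with a median of 2.38 in the unmarked libraries and from 3.41 to 6.36 FPKM with a median of 4.41 in the re-analyzed ones. The re-analyzed values lay in the upper part of the unmarked range. Its difference was 0.79 ± 0.14 (SE, log2 scale, limma adjusted p = 3.46e-06).

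MRPS14, a small-subunit protein of a family shared with bacteria, had medians of 3.96 and 6.36 FPKM, within 1.14 to 7.76 unmarked and 4.06 to 9.47 re-analyzed. Its difference was 0.55 ± 0.09 (SE, log2 scale, limma adjusted p = 6.44e-07), the smallest adjusted p of the members. MRPL39 lay between 0.252 and 10.0 FPKM with a median of 4.48 unmarked, and between 3.49 and 10.3 with a median of 7.00 re-analyzed, a difference of 0.48 ± 0.12 (SE). MRPS35 lay between 0.897 and 12.5 FPKM with a median of 6.70 unmarked, and between 6.49 and 11.2 with a median of 8.86 re-analyzed, a difference of 0.47 ± 0.12 (SE). For all 3 the ranges overlap, and the lowest re-analyzed value is far above the lowest unmarked one.

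MRPS6, a small-subunit protein of a family shared with bacteria, was lower. It ranged from 3.82 to 38.1 FPKM with a median of 10.1 in the unmarked libraries and from 4.25 to 9.34 FPKM with a median of 6.52 in the re-analyzed ones. The re-analyzed values lay inside the lower part of the unmarked range. The difference was -0.56 ± 0.12 (SE, log2 scale, limma adjusted p = 0.000103). The other lower member was MRPL49, at -0.18 ± 0.08 (SE, limma adjusted p = 0.0476), with values from 0.262 to 3.95 FPKM and a median of 2.09 unmarked, and from 1.42 to 2.18 with a median of 1.81 re-analyzed. MRPL49 no longer passed under 5 other settings of pseudocount, filter, scaling or transcript, with adjusted p between 0.0504 and 0.209, and is the gene that lies inside SYVN1.

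Among the other parts of the pathway, DAP3 (0.19 ± 0.06, SE, log2 scale) and CHCHD1 (0.21 ± 0.06), both proteins of the small subunit, were higher in the re-analyzed libraries, 2 of 6 further ribosome proteins. The share over all genes, also for the lists that follow, was 18.3% higher and 22.7% lower. Of 21 assembly factors 6 were higher, led by GTPBP10 (0.43) and MALSU1 (0.43), and 2 were lower, DDX28 (-0.19) and NSUN4 (-0.21). Of 13 translation factors 4 were higher, among them the release factor MTRF1L (0.41) and GUF1 (0.29), and none lower. Of 14 genes of mitochondrial transcription and mRNA stability 8 were higher, led by SLIRP (0.65) and FASTKD1 (0.64). Of 20 tRNA synthetases 3 were higher and 3 lower, with NARS2, CARS2 and VARS2 among those higher and EARS2 and LARS2 among those lower. Nuclear genes of oxidative phosphorylation rose in 20 of 33 and fell in none, led by NDUFA5 (0.79) and NDUFA2 (0.54). Cytosolic ribosomal proteins rose in 12 of 25, with RPL7 (0.59) first, and RPL3 fell (-0.26).

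**Figure D4:**
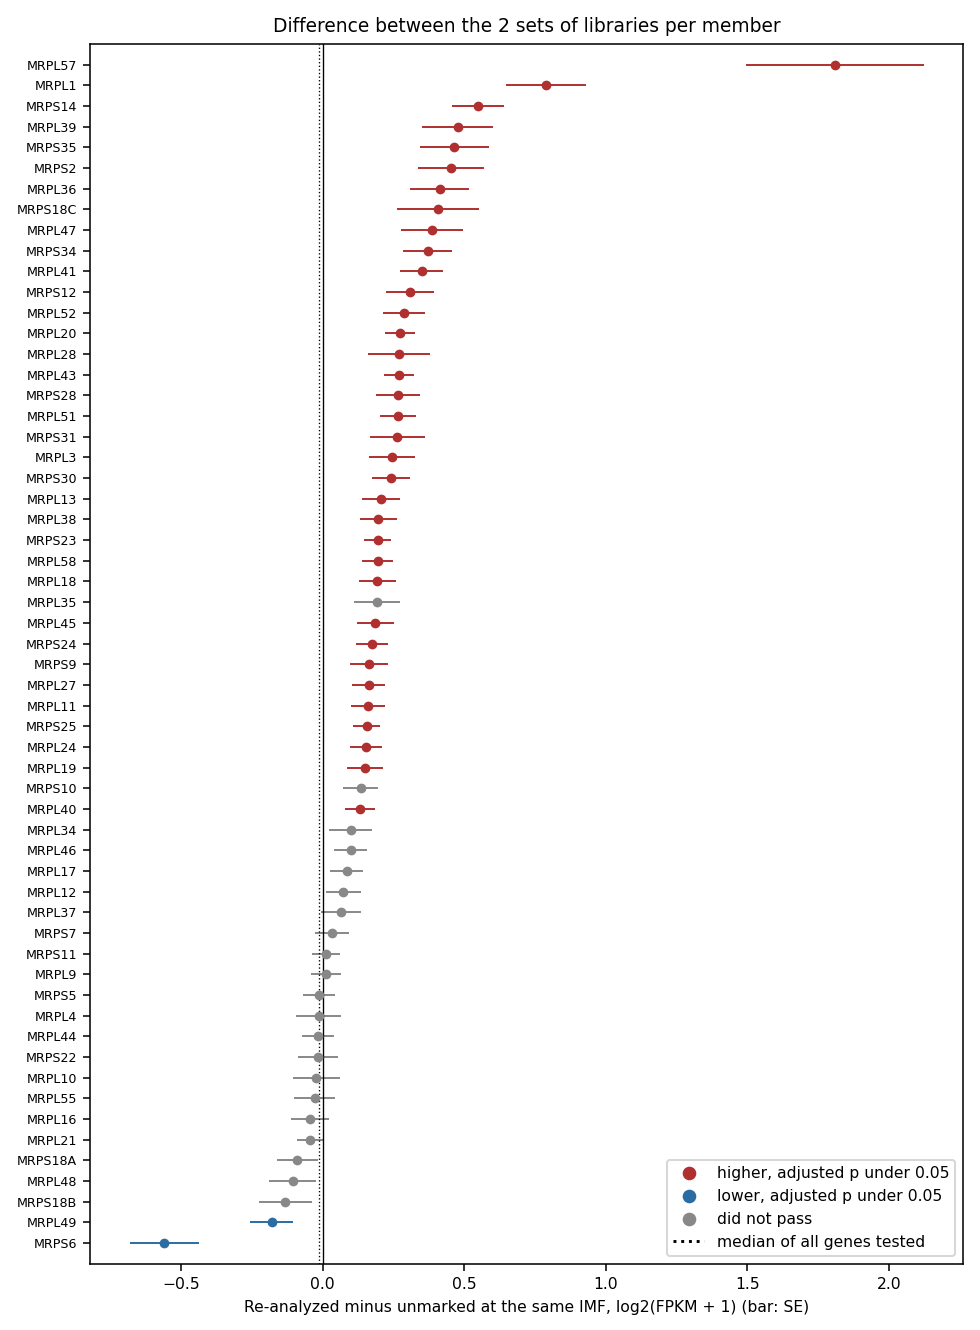
Difference of each member between 21 re-analyzed and 143 unmarked libraries, with IMF as a linear term, on the log2(FPKM + 1) scale. Bars show the SE, with red for higher and blue for lower at an adjusted p under 0.05 and grey for the rest. The difference runs from -0.56 (MRPS6) to 1.81 (MRPL57) and the dotted line is the median of all genes, -0.01; with TMEM238 as a further term 14 members are higher and none lower, beside 4.65% and 15.5% of all genes.

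Markers of other cell types moved the other way with the mark. Over all genes tested, 22.7% were lower and 18.3% higher. Of the adipocyte markers 7 of 9 were lower, of collagen and fibroblast markers 6 of 6, of macrophage markers 5 of 5, of endothelial markers 3 of 5 and of red blood cell markers 2 of 2. The summed adipocyte markers ranged from 73.1 to 3242 FPKM in the unmarked and from 54.8 to 341.5 FPKM in the re-analyzed libraries, with medians of 201.1 and 143.8. For collagen the ranges were 273.9 to 3463 and 281.4 to 1516 FPKM, for endothelial markers 29.5 to 101.8 and 27.6 to 65.9 FPKM, and for macrophage markers 8.69 to 85.5 and 5.10 to 30.6 FPKM. Red blood cell markers ranged from 0.838 to 497.3 and from 10.6 to 150.2 FPKM. ADIG and CD163 were at 0 in at least 1 library of each set and ALAS2 in at least 1 unmarked library. Of the muscle fibre markers 1 of 9 was higher and 2 lower. The part of these shifts in the members' difference was not tested.

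The axis along which MRPL57 varied moved with the mark too. With the level of TMEM238 as a further term, 14 members were higher and none lower, beside 4.65% of all genes higher and 15.5% lower. The difference of MRPL57 was then 0.34 (limma adjusted p = 0.0943). With the first 2 principal components of all genes that are no members as terms, 15 were higher and none lower, beside 7.85% and 6.33% of all genes. The difference of MRPL57 was then 0.21 (limma adjusted p = 0.558). Under either, 11 of the 37 members that passed before remained so in the same direction. That of MRPS6 was -0.13 and -0.00 (limma adjusted p = 0.369 and 0.983). TMEM238 itself differs with the mark, so a term for it also takes up part of that difference. It was also taken from the genes that followed MRPL57 most closely in these same libraries (r of 0.905). A smaller difference of MRPL57 under this term follows in part from that choice. The 2 components were taken from these same libraries and had an r of 0.694 and 0.538 with TMEM238. Terms for them can thus also take up part of the difference with the mark. Among these 164 animals, 12 title codes held both marked and unmarked animals, 13 marked and 24 unmarked in all. With the title code as a fixed block, which compares animals within codes, 8 members were higher and 1 lower, beside 3.55% and 6.85% of all genes. The difference of MRPL57 was then 2.07 (limma adjusted p = 0.00340) and that of MRPS6 -0.60 (limma adjusted p = 0.0231).

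Animals that share a title code were compared over the 48 codes of 146 animals. Of the members, 2 differed between codes by the moderated F test of limma, 3.45% beside 1.82% of all genes. The intraclass correlation, the share of variance between codes, had a median of 0.044 over members and 0.048 over all genes. It was 0.306 for MRPL38 (limma adjusted p = 0.0354), 0.306 for MRPL41 (limma adjusted p = 0.0300) and 0.291 for MRPS11, which did not pass (limma adjusted p = 0.0676). MRPL38 is a mitochondrion-specific protein of the large subunit. Over the 27 codes with at least 3 animals, the mean of MRPL38 ran from 13.0 ± 2.67 (SD, n = 4) to 20.4 ± 2.90 FPKM (SD, n = 4). That of MRPL41 ran from 50.6 ± 7.63 (SD, n = 4) to 109.5 ± 37.5 FPKM (SD, n = 3). For each gene these 2 codes were picked as the lowest and the highest of the 27. The distance between them is thus a description and no test. Neither passed in the unmarked libraries alone (limma adjusted p = 0.0946 and 0.133) or after quantile normalization (limma adjusted p = 0.0863 and 0.0800). For MRPL57 the intraclass correlation was 0.052 (limma adjusted p = 0.506).

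Some members rose and others fell with the mRNAs that their ribosome translates, as did the genes tested as a whole. Per log2 unit of the summed mitochondrially encoded mRNAs, over 189 libraries with the mark as a term, 22 members rose and 15 fell by limma. The background was 48.5% of all genes higher and 20.5% lower, and the members' shares were 37.9% and 25.9%. The summed level ranged from 10834 to 52786 FPKM in the unmarked and from 19042 to 45481 FPKM in the re-analyzed libraries. The median slope was 0.02 for members and 0.11 for all genes. Because these mRNAs are themselves part of each library's total, the split depends on scaling. It was 18 rising and 32 falling after quantile normalization, beside 31.6% and 47.1% of all genes. After aligning the library medians it was 14 and 36, beside 29.6% and 49.7%. After rescaling the libraries without these mRNAs it was 32 and 10, beside 57.4% and 11.7%. Those settings gave a median slope over all genes of -0.09, -0.11 and 0.18.

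The steepest slopes were those of MRPL57 (1.62 ± 0.19, SE), MRPL1 (1.09 ± 0.07), MRPS18C (0.96 ± 0.08), MRPS35 (0.94 ± 0.06) and MRPL47 (0.80 ± 0.05). MRPS18C and MRPS35 are proteins of the small subunit, and all 5 belong to the group of 22. The steepest falls were those of MRPS6 (-0.53 ± 0.08, SE), MRPL28 (-0.48 ± 0.07), MRPS18B (-0.41 ± 0.06), MRPL10 (-0.34 ± 0.06) and MRPL49 (-0.30 ± 0.05). Their limma adjusted p ranged from 2.21e-36 for MRPS35 to 2.83e-08 for MRPL49. The first principal component of all genes that are no members held 28.9% of their variance and had an r of 0.786 with the mitochondrially encoded level. With the first 2 such components as terms, 13 members rose and 1 fell, beside 13.7% of all genes higher and 7.31% lower. The slope of MRPL57 was then -0.17, that of MRPL1 0.04, and that of MRPL28 0.27 (limma adjusted p = 0.619, 0.637 and 0.0212). MRPL28 and MRPS18B, which fell before, rose under these terms. The mitochondrially encoded genes are among those that gave the components, so these terms can also take up part of the slopes.

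**Figure D5:**
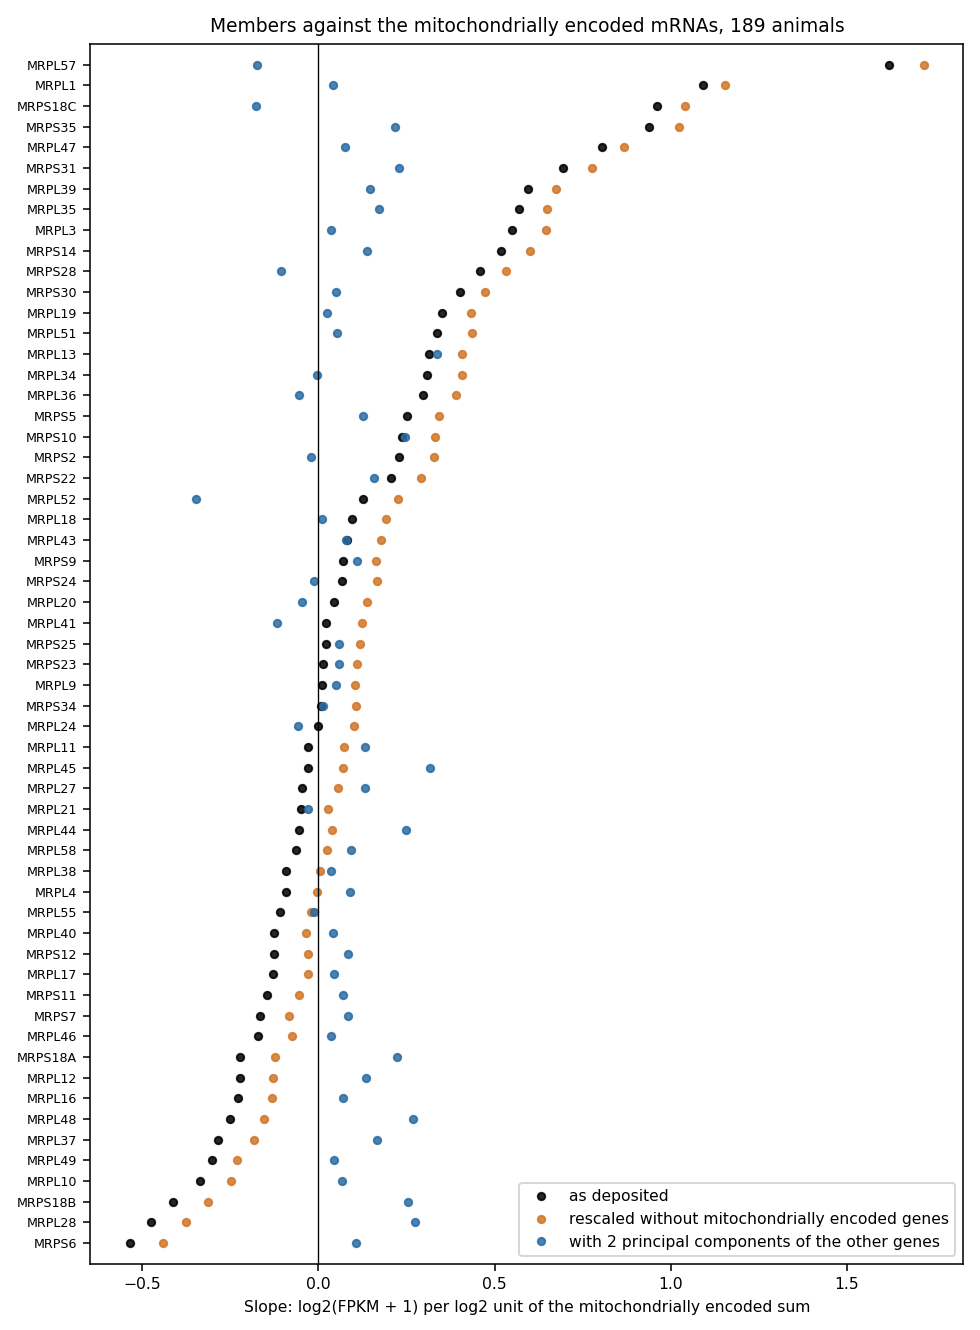
Slope of each member on the log2 sum of the mitochondrially encoded mRNAs over 189 animals: as deposited (black), after rescaling the libraries without those mRNAs (orange), and with 2 principal components of the other genes as terms (blue). Black points run from -0.53 (MRPS6) to 1.62 (MRPL57), orange points lie to their right, and the blue points of MRPL57, MRPS18C, MRPS6, MRPL28, MRPS18B, MRPL10 and MRPL49 lie on the other side of 0 from the black ones.

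The other genes of the pathway were counted on the same axis. Over all genes tested, 48.5% rose and 20.5% fell. Translation factors rose in 9 of 13 and fell in none, with MTRF1 (0.84) and MTRF1L (0.71) first. Genes of mitochondrial transcription and mRNA stability rose in 9 of 14 and fell in 4, with TFAM (1.22), which packages mitochondrial DNA, and SLIRP (1.08) first. Assembly factors rose in 8 of 21 and fell in 5, with GTPBP10 (0.96) highest. Whether these counts differ from that of the members was not tested.

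MRPS6 was the only member past the threshold with the level of MYH7, the myosin of slow fibres, by limma over 189 libraries. Its slope was 0.20 ± 0.05 per log2 unit (SE, limma adjusted p = 0.0134), and it passed under each of the 10 other settings tried. No member was lower, and 8 of the 58 had an unadjusted p under 0.05, beside 1749 of the 10717 genes tested. The background was 2.96% of all genes higher and 1.14% lower. The median slope was -0.00 for members and -0.01 for all genes. Nuclear genes of oxidative phosphorylation rose with MYH7 in 17 of 33, led by NDUFV1 (0.19) and SDHA (0.19). Of the translation factors TUFM rose (0.13), of the further ribosome proteins the insertase OXA1L (0.09), and of the regulators PPARGC1B (0.22).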

How the data were processed

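Per the submitters' processing notes, reads were processed with HISAT2 2.0.5 and StringTie 1.3.3 on Sscrofa11.1. The deposited table gives 1 value per transcript and library for 18114 transcripts. Its header names no unit, and the authors' values were taken as FPKM from the column layout; the sources used here do not give the annotation release or the filter. Values were summed per gene, and log2(FPKM + 1) was tested with limma 3.58.1 (R 4.3.3, lmFit and eBayes with a trend), 2-sided, for genes that averaged 0.5 FPKM or more. P-values were adjusted by Benjamini-Hochberg over all 10717 genes, and a gene was called under 0.05. Fold changes on this scale understate the change of low genes. The fits were tested on simulated data.

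Terms were IMF and the mark (164 animals), the mark with the title code (146), with the summed mitochondrially encoded FPKM or with MYH7 (189), and high against low IMF alone (21). P-values treat animals as independent. The labels give different numbers of sows, 158 and 112. Named were the members called or, beyond 10 in a direction, the 5 with the largest effect, with the extremes of level, spread, intraclass correlation and likeness, and of other lists the genes called or the 2 largest; a few more were named after their values were seen. Members, lists and tests were chosen with earlier results of these data known. Gene positions are those of the deposited table. Some results on genes of the other lists are not reported here.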

Additional observations from a re-analysis of the deposited data

Results flagged for a closer look

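Among the 10 high-IMF libraries with the mark, MRPS23, a small-subunit protein and 1 of the least variable members, stood at 20.8 FPKM in library 136. The next highest library was at 14.4 FPKM and the lowest at 11.6 FPKM, so that this gap made up 0.693 of the range. It was the only such value among the 58 members tested in this way, and chance alone sets apart about 1 group in 20.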

How the results depend on the processing

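Leaving out library 39 left 36 members higher and 2 lower in the re-analyzed libraries. The other alternatives changed pseudocount, filter, scaling, transcript, terms or libraries. The terms TMEM238 and 2 principal components and the title code as a fixed block were added after the data were seen. In the mark difference, members lower came to 1 with a pseudocount of 0.1, a mean of at least 5 FPKM, no filter, quantile normalization, aligned medians or the highest transcript alone. TMEM238 gave 14 higher and 0 lower, and MRPL49 at 0.0174; 2 components gave 15 and 0; the title code as a fixed block gave 8 and 1. Between title codes 4 of 46 members were called at 5 FPKM or more (3.93% of all genes), 8 with TMEM238 (4.81%), and 0 after quantile normalization (1.02%), after aligned medians (1.03%) or in unmarked libraries alone (0.551%). With the mitochondrially encoded level 13 rose at 5 FPKM or more, where only 46 members were tested; 32 fell after quantile normalization; 14 rose and 36 fell after aligned medians; and 13 rose and 1 fell with 2 components. Slopes that changed sign with 2 components were -0.173 for MRPL57, -0.176 for MRPS18C, 0.107 for MRPS6, 0.275 for MRPL28, 0.255 for MRPS18B, 0.0681 for MRPL10 and 0.0450 for MRPL49. With MYH7, 2 rose with 2 components. The cause of these changes was not tested. The difference of MRPL57 between high and low IMF, never called, was 0.0271 with TMEM238, 0.0290 with 2 components, and ranged from -0.0994 to 0.0924 without 1 library. Over these settings 24 of the main results moved by over 1.5 times, and 144 did not. Of the further medians and effects of single genes, 26 moved, 13 changed sign, 29 became weaker and 303 stayed the same. Title code as a random effect (correlation 0.0206) left 35 members higher and 2 lower in the re-analyzed libraries. No paired analysis was possible because the groups share no replicate numbers; within title codes, 12 of which held both sets, the comparison is that with the fixed block. Without counts, the limit that depth sets is unknown.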
